A study of Mus musculus with 4 samples.

Results

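The Fc gamma receptors are the cell-surface proteins through which macrophages bind antibody of the IgG class. The genes described here are Fcgr1, Fcgr3 and Fcgr4, which encode the ligand-binding chains of the activating receptors, Fcer1g, which encodes the signalling chain these share, and Fcgr2b, which encodes the inhibitory receptor. They were chosen as every probe whose platform gene symbol is one of these names, because CD13 is known from work on human cells to act with Fc receptors in phagocytosis. The array carries 9 such probes, of which 7 were measured, meaning that their detection p (the chance of so bright a signal on background beads) was under 0.01 on at least 2 arrays. All 5 genes had a measured probe, out of 10335 genes and unnamed probes tested.

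RNA came from resting peritoneal macrophages of C57BL/6 mice, and wild type was compared with CD13 knock out, from mice null for the aminopeptidase encoded by Anpep, per the labels and the series text. Each group holds 2 Illumina MouseWG-6 v2.0 arrays, and by those sources both groups share the strain and cell type. Whether their genetic background was the same around the receptor genes was not tested. All 4 arrays are labelled peritoneal, and that was followed, although the series text also mentions cells grown from bone marrow. How many animals, of which age and sex, gave each RNA is not stated in the sources used here. A p-value therefore reflects the spread among these arrays alone, which may be technical.

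An activating Fc gamma receptor is a pair of proteins. Its ligand-binding chain clusters when it meets antibody-coated particles, and the Fcer1g chain then carries the signal through an ITAM, a tyrosine motif that Src-family kinases phosphorylate and that recruits the kinase Syk. Fcgr2b binds the same complexes but carries an inhibitory motif, the ITIM, which recruits the lipid phosphatase SHIP1. In macrophages the balance of both kinds sets the threshold for engulfment and for release of inflammatory mediators, and without Fcer1g the mouse activating receptors are lost or much reduced at the cell surface.

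Myeloid genes often carry, just before their start, the purine-rich box bound by the transcription factor PU.1. For this reason the 250 bases before the start of each receptor gene were read from the RefSeq promoter table (GRCm38.p6), where all 5 genes matched. Both strands were searched for GAGGAA, taken here as the PU.1 box, and other spellings of the box were not searched. The 3 promoters that hold a match are shown 5′ to 3′ on the strand of the gene, with matches in capitals. They are Fcgr1 at chr3:96293970-96294219 (minus strand), Fcgr3 at chr1:171059404-171059653 (minus strand) and Fcgr4 at chr1:171018676-171018925 (plus strand).
Fcgr1: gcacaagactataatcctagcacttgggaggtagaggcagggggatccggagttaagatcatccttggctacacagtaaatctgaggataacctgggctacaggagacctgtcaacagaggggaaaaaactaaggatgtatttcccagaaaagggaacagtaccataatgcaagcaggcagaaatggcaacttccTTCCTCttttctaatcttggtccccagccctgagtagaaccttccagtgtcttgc
Fcgr3: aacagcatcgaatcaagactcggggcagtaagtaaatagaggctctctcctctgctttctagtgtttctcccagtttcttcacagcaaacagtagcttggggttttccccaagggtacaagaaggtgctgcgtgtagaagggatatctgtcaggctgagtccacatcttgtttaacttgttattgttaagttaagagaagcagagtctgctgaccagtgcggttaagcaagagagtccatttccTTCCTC
Fcgr4: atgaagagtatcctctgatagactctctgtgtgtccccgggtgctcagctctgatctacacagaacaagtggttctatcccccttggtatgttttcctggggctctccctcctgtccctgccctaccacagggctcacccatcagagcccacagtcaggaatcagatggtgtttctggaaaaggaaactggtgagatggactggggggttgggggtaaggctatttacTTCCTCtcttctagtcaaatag
In each of these promoters the match reads TTCCTC, the reverse complement of GAGGAA. It begins 55 bases before the start of Fcgr1, 6 bases before that of Fcgr3 and 22 bases before that of Fcgr4. GAGGAA was present in 23.1% of 27025 promoters of the same length, and in 3 of these 5. These letters are not in this window of Fcgr2b or Fcer1g. A match describes the sequence and does not show a bound site.

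No Fc gamma receptor gene passed the test between knockout and wild type. Fcer1g had the largest difference, 1.40-fold higher in the knockout, and the binding chains Fcgr1 and Fcgr4 had means 1.28-fold higher. Fcgr2b differed by 1.05-fold, and Fcgr3 was 1.16-fold lower. When arrays were scaled to a common median, the log2 changes of Fcgr1 and Fcgr2b turned to -0.01 and -0.24, where the median of all features was -0.33. The test was limma's moderated test on log2 normalized intensity with Benjamini-Hochberg adjustment over all 10335 features, and a gene is called at an adjusted p under 0.05. The call applies to 0 of 5 receptor genes and to 0.0968% of all features. At an unadjusted p under 0.05, 1 of the 5 passed (Fcer1g), against 9.34% of all features, and 0 passed when a 1.5-fold change was also asked, against 7.04%.

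Anpep, the targeted gene, had log2 values of 13.58 and 13.40 (wild type) against 11.12 and 11.03 (knockout) (adjusted p = 0.0265, limma). Between 13659 and 14823 probes were detected per array, and median signals before normalization ran from 109.0 to 167.1, with both wild type arrays brighter than both knockout arrays. Correlation across probes was 0.981 within wild type, 0.979 within knockout and 0.967 to 0.977 between groups. Of 10 macrophage markers 9 were measured, among them Lyz2 (log2 15.74 to 15.83) and Cd14 (15.09 to 15.36), and Cd68 had no probe named here. Some markers listed for other cell types were also measured. Among them were S100a8 of the neutrophil list (log2 9.77 to 11.13) and Hdc of the mast cell and basophil list (9.86 to 11.24). Prf1 of the T and NK cell list read 10.23 to 10.69. Mpo and Elane, Fcer1a and Ms4a2, and Cd3e of the same lists had a probe but were not measured, by the rule of at least 2 arrays. Which cells gave the measured signals was not tested.

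**Figure D1:**
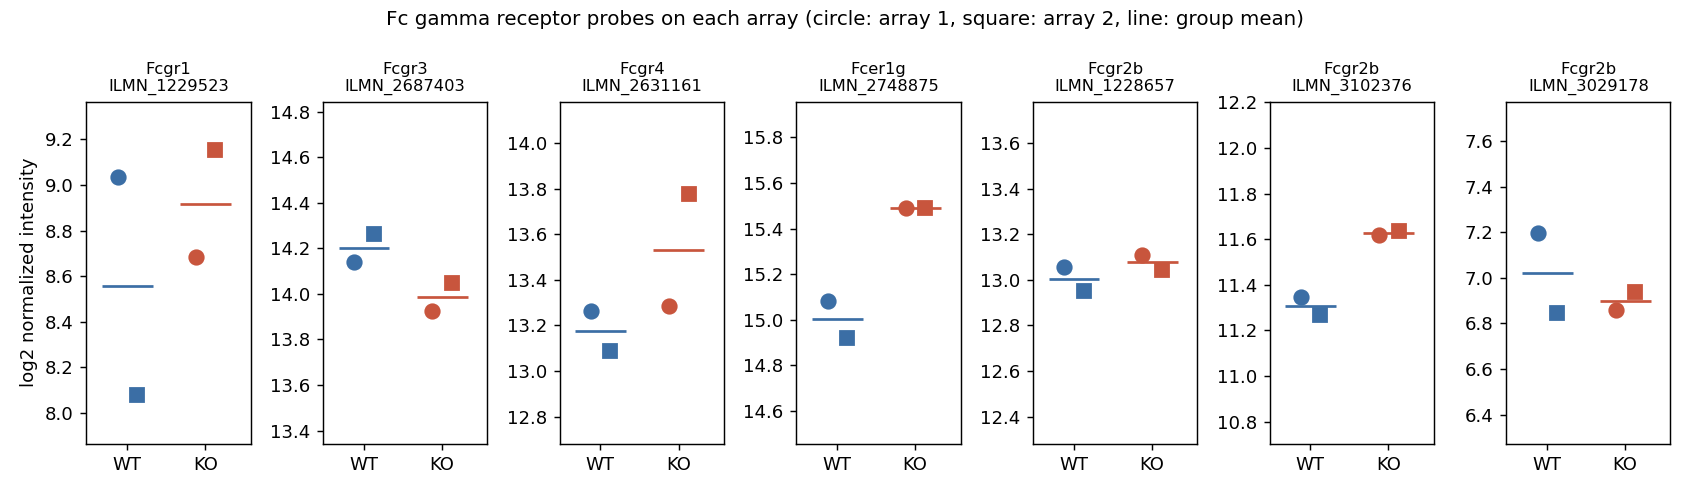
Log2 normalized intensity (vertical axis, 1 scale width for all panels but different levels) of the 7 measured probes of the Fc gamma receptor genes on wild type (WT) and knockout (KO) arrays. The line is the mean of 2 arrays. The Fcgr1 arrays are spread within each group, whereas both knockout arrays of Fcer1g lie at 15.49, above both wild type arrays.

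Fcgr1 encodes the high-affinity receptor, which can bind single IgG molecules. Wild type arrays 1 and 2 read 9.04 and 8.08 in log2 intensity, whereas knockout arrays 1 and 2 read 8.68 and 9.15. The wild type arrays lie further apart than the group means do, and the groups overlap. The change from wild type to knockout was 0.36 ± 0.36 (standard error, SE, with 2 arrays per group), with a 95% interval of -0.54 to 1.26 and an adjusted p of 0.826 in limma. The direction rests on wild type array 2: the change was -0.12 without it and 0.84 without wild type array 1.

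Fcgr3 encodes a low-affinity activating receptor for immune complexes. It read 14.14 and 14.26 in wild type, against 13.92 and 14.05 in the knockout. Both knockout arrays lie below both wild type arrays, by a margin smaller than the distance between the arrays of either group. The change was -0.21 ± 0.18 (95% interval -0.65 to 0.22, limma adjusted p = 0.780). Among the 5 genes Fcgr3 alone had a lower mean in the knockout.

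Fcgr4 encodes the receptor that binds mouse IgG2a and IgG2b with intermediate affinity. Wild type values were 13.26 and 13.09, and knockout values were 13.28 and 13.78. The groups do not overlap, but knockout array 1 lies just above wild type array 1, and knockout array 2 accounts for most of the distance between the means. The change was 0.35 ± 0.23 (95% interval -0.22 to 0.93, limma adjusted p = 0.715). It was 0.60 without knockout array 1 and 0.11 without knockout array 2.

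Fcer1g, the common signalling chain, also pairs with receptors outside this family, among them Fc receptors for IgE and several C-type lectins. It read 15.08 and 14.92 in wild type and 15.49 on both knockout arrays. The groups do not overlap, and the step between them exceeds the spread of the wild type arrays. The change was 0.49 ± 0.17 (95% interval 0.05 to 0.92), with an unadjusted p of 0.0335 and an adjusted p of 0.503 in limma, which is not a call. Its probe ranked 112 and 144 from the brightest of 45281 probes on the wild type arrays and 34 on each knockout array. Quantile normalization gives probes of the same rank the same value, so the knockout arrays have no spread here. The SE draws on the spread of the wild type arrays and on that of other genes.

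Before normalization the Fcer1g signals were 47100 and 31134 in wild type, against 42648 and 39038 in the knockout, and the groups overlapped. Fcgr3 read 24694 and 20401 against 14266 and 12007 on that scale. There the median signal of all probes was also lower on both knockout arrays. Fcgr4 read 13649 and 8864 in wild type, against 8991 and 10156 in the knockout. The brightest probe on the arrays had signals between 54570 and 72131, so the Fcer1g and Fcgr3 probes lie in the upper part of the range, where saturation of the scanner was not tested.

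Fcgr2b, the inhibitory receptor, is read by 5 probes, 3 of them measured. The brightest, ILMN_1228657, had values of 13.05 and 12.95 in wild type, against 13.11 and 13.04 in the knockout, a change of 0.07 ± 0.17 (95% interval -0.35 to 0.50, limma adjusted p = 0.940). These groups overlap. The probe ILMN_3102376, designed on another transcript record of the gene, read 11.35 and 11.27 against 11.62 and 11.64.

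For ILMN_3102376 the groups do not overlap, and its change in the fit over every kept probe was 0.32 ± 0.18 (limma adjusted p = 0.678). ILMN_3029178, designed on the same record, read 7.20 and 6.85 in wild type, against 6.86 and 6.94 in the knockout, with a change of -0.12 ± 0.21 (limma adjusted p = 0.911). The 3 probes thus differ in sign, and none passed. The remaining probes, ILMN_2577664 and ILMN_2447970, were above background on 0 arrays, with detection p values of 0.0684 to 0.141 and 0.173 to 0.738.

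**Figure D2:**
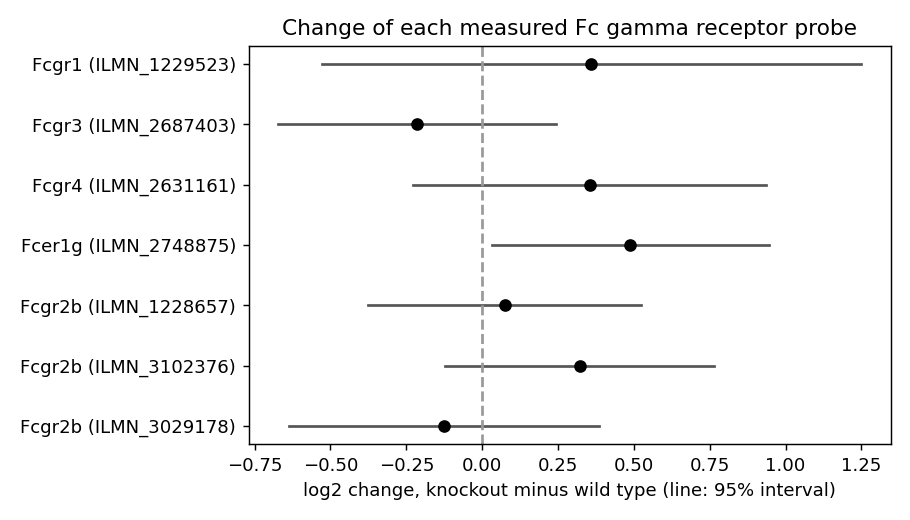
Log2 change from wild type to knockout (horizontal axis) of each measured probe, with its 95% interval from the fit over every kept probe. Each interval crosses 0 except that of Fcer1g, whose adjusted p was 0.525 in this fit.

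Across the family, 3 of 5 genes had groups that do not overlap, against 39.9% of all features. In 2 the knockout was higher (Fcgr4 and Fcer1g), against 20.8% of all features, and in 1 it was lower (Fcgr3), against 19.1%. The median log2 change of the 5 genes was 0.35, beside 0.01 over all features, of which 5353 had a higher and 4982 a lower mean. That median was 0.02 without wild type array 2 and 0.11 leaving out knockout array 2. With arrays scaled to a common median it was -0.01, where the median of all features was -0.33, and relative to the latter it was 0.32. The family median is a description and was not tested.

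The estimated changes of the members were set side by side, although none passed. The change of Fcgr3 was 0.70 below that of its signalling partner Fcer1g and 0.57 below that of Fcgr4 on the log2 scale. Fcgr2b lay 0.29 above Fcgr3 and 0.42 below Fcer1g, and Fcgr1 and Fcgr4 differed by 0.01. These are differences of changes within the same arrays and were not tested. In whole-population RNA, fewer cells of a type and less RNA per cell cannot be told apart.

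The 3 named genes with the profile most like that of each receptor gene over the 4 arrays were found by the root mean square difference of log2 values, after subtraction of each gene's mean, among 8237 genes. For Fcer1g these were Ear10 (0.0109), Ehd4 (0.0248) and Il3ra (0.0273), and 161 genes lay within 0.1. For Fcgr4 they were Bub3 (0.00944), Vmac (0.0175) and Atp5k (0.0185), and for Fcgr3 they were Mier1 (0.00987), Nasp (0.0115) and Acadl (0.0124). Atpaf2 (0.0134), Twsg1 (0.0144) and Cers2 (0.0151) were nearest to Fcgr2b, where 1173 genes lay within 0.1. Nearest to Fcgr1 were Supt20 (0.0653), Stard8 (0.0661) and Sipa1 (0.0679), and 10 genes lay within 0.1. Over 4 arrays many genes share a profile, and no other likeness is meant.

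The genes that act with the receptors were taken from 8 lists of 135 genes, of which 124 had a named probe and 101 were measured. In limma 0 of the 101 passed, against 0.0968% of all features, and 15 (14.9%) had an unadjusted p under 0.05, 5 higher and 10 lower, against 9.34% of all features.

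**Figure D3:**
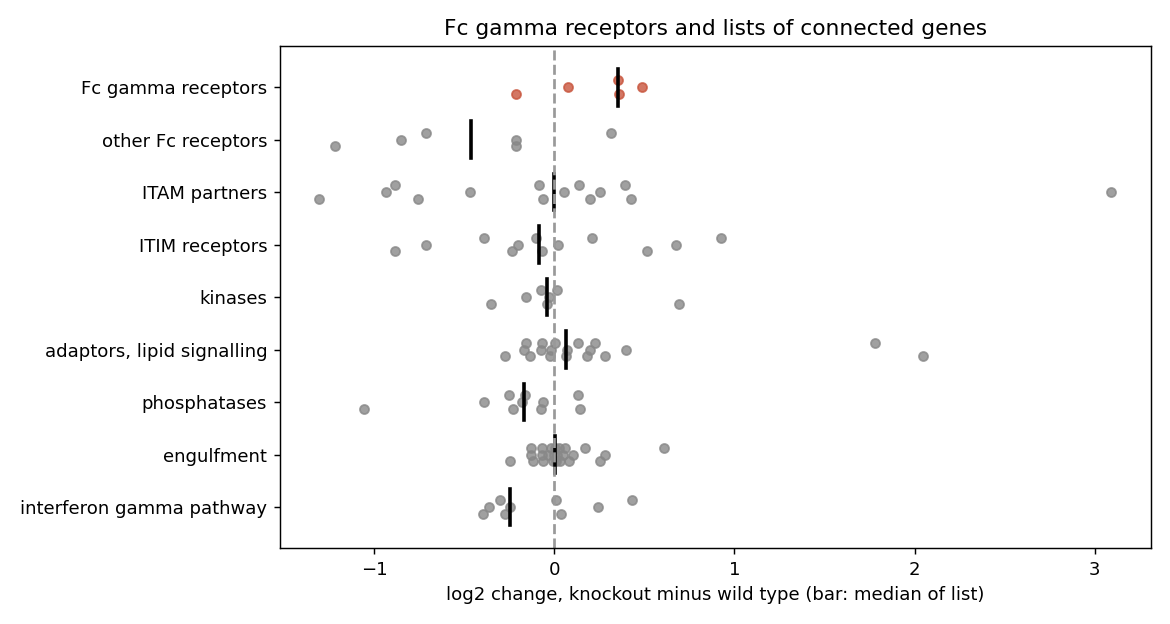
Log2 change from wild type to knockout (horizontal axis) of each measured gene (point) of the Fc gamma receptors and the 8 connected lists, with the list median (bar). The medians run from -0.46 for other Fc receptors to 0.35 for the Fc gamma receptors, and none of the plotted genes passed.

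Of 7 measured kinases that act directly at activating receptors, 0 passed in either direction and the median change was -0.04. Syk, the kinase recruited by the ITAM and chosen here after its values were seen, read 8.88 and 8.99 in wild type, against 9.23 and 8.67 in the knockout (change 0.01 ± 0.24). Fgr, a Src-family kinase, had a log2 change of -0.35 ± 0.20 (limma adjusted p = 0.671), Src of 0.69 ± 0.49 (adjusted p = 0.739) and Tec of -0.16 ± 0.20 (adjusted p = 0.868). Lyn, another Src-family kinase of macrophages, had no probe named here.

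Of 19 measured adaptors and lipid-signalling effectors, 0 passed, 2 had an unadjusted p under 0.05 with higher means, and the median was 0.07 (-0.02 without wild type array 2). Lat, a membrane scaffold of antigen and Fc receptor signalling, read 6.86 and 8.04 in wild type, against 9.70 and 9.29 in the knockout. Gab2, which recruits phosphatidylinositol 3-kinase to Fc gamma receptors in mouse macrophages, read 6.74 and 7.90 against 9.09 and 9.11. Neither gene's groups overlap, and on wild type array 1 both were lower than on array 2.

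The change was 2.05 ± 0.41 for Lat (limma adjusted p = 0.270) and 1.78 ± 0.39 for Gab2 (adjusted p = 0.293). Without wild type array 1 they were 1.46 and 1.20, and without wild type array 2 they were 2.63 and 2.36. Both genes lie on chromosome 7, as Anpep does, and whether their changes relate to that was not tested. Cblb, a ubiquitin ligase that restrains such signalling, had a change of 0.40 ± 0.19 (adjusted p = 0.605).

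Phosphatases and negative regulators form a list, and whether each of them restrains or promotes receptor signalling was not tested. Of 10 measured, 0 passed, 8 had a lower and 2 a higher mean, and the median was -0.17. That median ran from -0.30 to 0.0043 when single arrays were left out, and turned sign without knockout array 1. Inpp5d, which encodes SHIP1, read 9.89 and 9.75 in wild type and 9.43 on both knockout arrays, without overlap. Its change was -0.39 ± 0.17 (limma adjusted p = 0.574). Ptprj, a receptor tyrosine phosphatase that acts on Src-family kinases, had a log2 change of -1.06 ± 0.25 (adjusted p = 0.345), and Dok3, an adaptor that dampens signalling, of -0.23 ± 0.21 (adjusted p = 0.807).

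Other receptors with an ITIM numbered 12 measured, of which 0 passed, 5 had higher and 7 lower means, and the median was -0.09 (0.03 without wild type array 2). Cd22, an ITIM lectin best known from B cells, had a log2 change of 0.93 ± 0.20 (limma adjusted p = 0.279). Cd200r1, which quiets myeloid cells on binding CD200, had a log2 change of 0.68 ± 0.18 (adjusted p = 0.375) and was detected on 1 of 2 wild type arrays. Cd300lf, a lipid-binding receptor, had a log2 change of 0.52 ± 0.19 (adjusted p = 0.503).

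Among 14 measured adaptors and receptors that pair with Fcer1g or the related chain Tyrobp, 0 passed, 7 had higher and 7 lower means, and the median was -0.00 (-0.08 to 0.03 with single arrays left out). Tyrobp itself, chosen after its values were seen, had a log2 change of -0.06 ± 0.18. The members with the smallest unadjusted p were lower in the knockout and include C-type lectins that signal through Fcer1g. Clec4n, which encodes Dectin-2, read 10.56 and 10.49 against 9.61 and 9.93 (-0.75 ± 0.19, limma adjusted p = 0.365).

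Clec4e, which encodes Mincle, read 11.90 and 12.47 against 11.47 and 11.12 (-0.88 ± 0.26, limma adjusted p = 0.411). Pilrb1, which signals through Tyrobp, had a log2 change of -0.93 ± 0.21 (adjusted p = 0.310). The groups of these genes, named for their small p, do not overlap. Of the 14 genes, 5 had such groups with the knockout lower and 4 with it higher, against 19.1% and 20.8% of all features. Fcer1g, the chain of the lectins, had the opposite sign in the same arrays. The 7 listed genes with higher means shared its sign, among them Pira2 (0.39 ± 0.21). Whether the changes of Clec4n, Clec4e and Pilrb1 differ from that of Fcer1g was not tested.

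The other Fc receptors and Fc receptor-like genes had 6 measured members of 13, of which 0 passed, 1 had a higher and 5 a lower mean, and the median was -0.46. Fcmr, the receptor for IgM, read 11.44 and 11.38 in wild type, against 10.46 and 10.66 in the knockout (-0.85 ± 0.18, limma adjusted p = 0.277). Trim21, an antibody receptor of the cytosol, had a log2 change of -0.71 ± 0.19 (adjusted p = 0.376). Fcrla, a B cell gene beside Fcgr2b on the chromosome, read 10.31 and 10.93 against 8.97 and 9.84 (-1.22 ± 0.36, adjusted p = 0.412), and its change was -0.79 without knockout array 1 and -1.65 without knockout array 2.

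B cells can carry Fcgr2b, Fcmr and Fcrla, and their markers did not share a direction, with 2 higher and 3 lower means and 0 passing. The summed linear intensity of the 5 measured markers of 8 was 3068 and 3652 in wild type, against 2134 and 2847 in the knockout, and the groups do not overlap. Cd79b, a chain of the B cell antigen receptor, carries that difference, with a change of -1.02 ± 0.40. The other 4 markers summed to 998.7 and 880.4 in wild type and were higher in the knockout, at 1339 and 1087. Among them Ms4a1 had a change of -1.23 ± 0.30 (limma adjusted p = 0.356) and Cd22 one of 0.93 ± 0.20. Ms4a1 was above background on 0 of 2 knockout arrays. Its knockout values were raised to the lowest detected signal of their array where they lay below it. The wild type mean was then 1.6-fold higher, an estimate that leaves out the spread of the arrays. Pax5, the defining B cell transcription factor, had a probe but was not measured, and Cd79a, another chain of that receptor, had no probe named here. The part of B cells in the values of the Fc receptor genes was not tested.

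The actin and membrane effectors of engulfment had 24 measured members, of which 0 passed, 13 had higher and 11 lower means, and the median was 0.01. Gsn, which encodes the filament-severing protein gelsolin, had a log2 change of 0.61 ± 0.28 (limma adjusted p = 0.596). Vav1, an exchange factor for Rac, had a log2 change of 0.25 ± 0.17 (adjusted p = 0.726), and Arf6, a GTPase of membrane supply, of -0.24 ± 0.20 (adjusted p = 0.778).

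In the interferon gamma pathway, an inducer of Fcgr1, 0 of 9 measured genes passed, 4 had higher and 5 lower means, and the median was -0.25, which was 0.03 without wild type array 1 and, leaving out knockout array 1 instead, 0.07. Spi1, which encodes PU.1, read 10.69 and 10.18 in wild type, against 10.71 and 11.02 in the knockout, a change of 0.43 ± 0.24 (limma adjusted p = 0.679). Irf9, a transcription factor of interferon signalling, had a log2 change of -0.39 ± 0.18 (adjusted p = 0.597) and Irf1, an interferon-induced transcription factor, of -0.36 ± 0.22 (adjusted p = 0.700).

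The genes Fcgr2b, Fcgr4, Fcgr3 and Fcer1g lie in this order on chromosome 1, with Fcrla before Fcgr2b, and Fcgr1 lies on chromosome 3 by the RefSeq table. Within 3 Mb of the chromosome 1 genes, 39 other genes were measured, of which 0 passed as higher and 1 as lower. This was Ifi202b, an interferon-inducible DNA-binding protein gene, with a change of -2.93 ± 0.22 (limma adjusted p = 0.0265).

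Of those 39 neighbours 11 (28.2%) had an unadjusted p under 0.05, against 9.34% of all features, and 24 (61.5%) had groups that do not overlap, against 39.9%. The neighbours with the next smallest unadjusted p were Mndal, of the same gene family as Ifi202b (-1.21 ± 0.20, limma adjusted p = 0.223), Vsig8 (1.17 ± 0.20, adjusted p = 0.225) and Pcp4l1 (1.09 ± 0.18, adjusted p = 0.225). Their median change was 0.09, with 22 higher and 17 lower means. Around Fcgr1, 0 of 68 measured neighbours passed and 5 (7.35%) had an unadjusted p under 0.05.

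**Figure D4:**
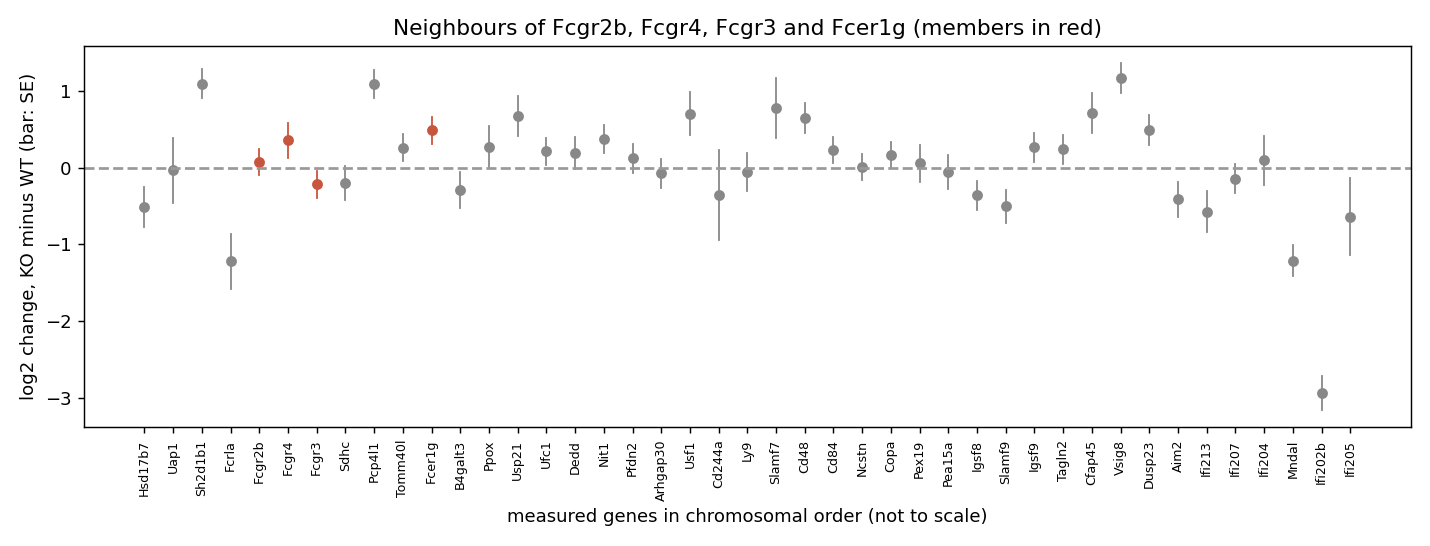
Log2 change from wild type to knockout (vertical axis, bar: SE) of measured genes around Fcgr2b, Fcgr4, Fcgr3 and Fcer1g, in chromosomal order and not to scale. The 4 receptor genes in red lie between -0.21 and 0.49, and Ifi202b lies at -2.93.

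Markers of the macrophage itself and of other cells that carry Fc gamma receptors were set beside these values. The summed linear intensity of the 9 measured macrophage markers was 128117 and 139895 in wild type, against 119584 and 112673 in the knockout, without overlap. Of these markers 8 had a lower and 1 a higher mean (Mertk, 0.27 ± 0.21), and none passed. The integrin gene Itgam had the largest change, -1.59 ± 0.19 (limma adjusted p = 0.150), followed by Timd4 (-1.29 ± 0.47), while the 2 brightest, Lyz2 and Cd14, had -0.07 ± 0.17 and -0.18 ± 0.17. Of 10 neutrophil markers 3 were measured, with sums of 1037 and 2642 against 2612 and 2250, which overlap. By their means 2 were higher and 1 was lower in the knockout. The groups of Ltf, a dim marker, do not overlap, with a change of 2.00 ± 0.45 (limma adjusted p = 0.310). Ltf was detected on 1 of 2 wild type arrays.

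Both measured monocyte markers summed to 2707 and 2847 in wild type, against 2537 and 2225 in the knockout, but they had opposite signs, each without overlap. Plac8 had a change of -1.20 ± 0.24 (limma adjusted p = 0.274) and Chil3 one of 1.29 ± 0.31 (adjusted p = 0.365). For mast cells and basophils, 5 of 10 markers were measured, with sums of 1801 and 2978 against 2132 and 1426. In the remaining lists 1 of 6 eosinophil, 1 of 10 T and NK cell and 2 of 7 dendritic cell markers were measured. Of all 66 marker genes 28 were measured and 0 passed in limma. The part of these cell types in the values of the receptor genes was not tested.

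**Figure D5:**
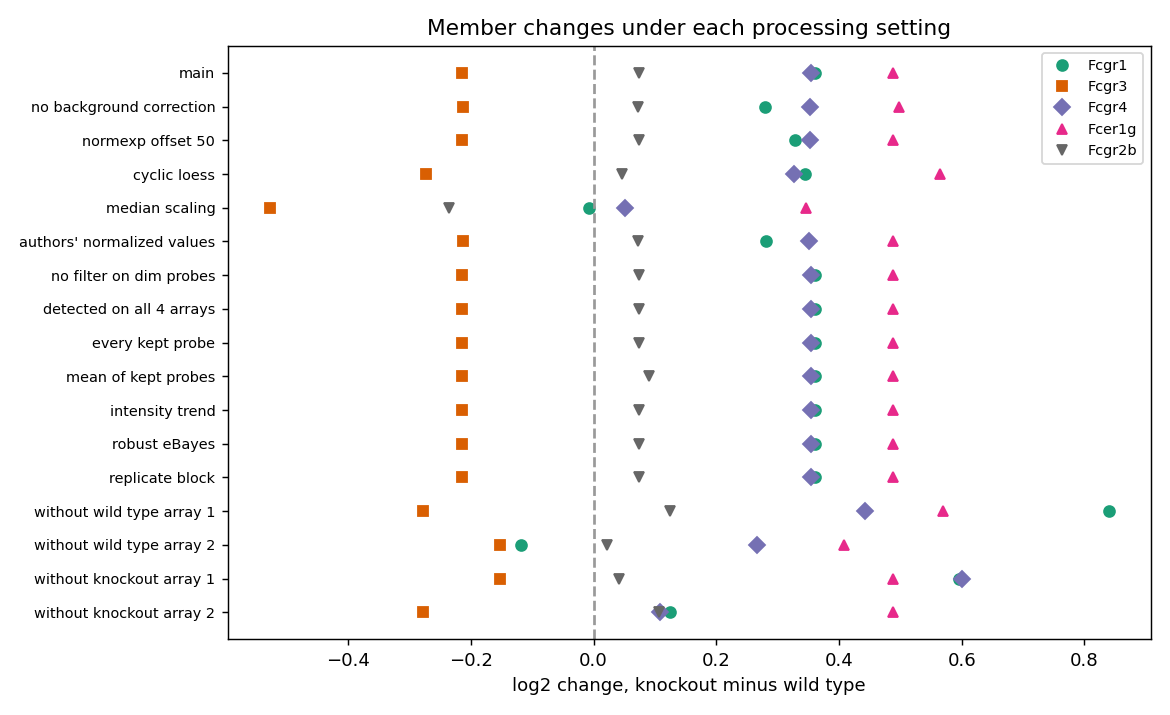
Log2 change from wild type to knockout (horizontal axis) of the 5 receptor genes, each with its own symbol, under the main processing and 16 other settings. Fcer1g stays between 0.35 and 0.57 and Fcgr3 between -0.53 and -0.15, while Fcgr1 runs from -0.12 to 0.84.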

How the data were processed

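The authors deposited, for each probe and array, a linear intensity that is not normalized between arrays and a detection p-value. Another deposited table gives the same intensity after quantile normalization by GenomeStudio, according to the series text. The GenomeStudio version and any background subtraction are not given in the sources used here.

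From the signals, normexp correction informed by the detection p-values (offset 16), quantile normalization and log2 were applied with neqc (limma 3.58.1, R 4.3.3). Of 45281 probes, 34885 had 1 symbol in the platform annotation, 18 several and 10378 none, and 34807 matched the RefSeq gene table by gene ID. Probes with a detection p under 0.01 on at least 2 of 4 arrays were kept (14881), and the probe with the highest mean stood for its gene, which gave 10335 features, 8238 of them named genes. The genotypes were compared by lmFit and eBayes with no other term, and intervals cover 95%. A single value over 2 against 2 arrays cannot reach a two-sided exact permutation p below 0.333. The number of arrays limits the precision. Only the limma fit was tested on simulated log2 values, and the steps before it were not.

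The members, gene lists, neighbourhoods and tests were chosen with earlier results of these data known, Ifi202b among them. Named were all members with every probe, Anpep, the 3 members of each list with the smallest unadjusted p where none passed, the 4 neighbours of the chromosome 1 genes with the smallest unadjusted p, the 3 genes most like each member and, in part, the 2 brightest markers of a list. Syk, Tyrobp, Itgam, Timd4, Mertk, Ms4a1 and other genes outside that rule were chosen after their values were seen. The deposited files name no genome build, so no position of a gene or probe is given, and the promoter positions are those of the RefSeq table, in its own build. Alternatives changed background correction, scaling, filters, the choice of probe, the fit and the arrays left out. Where an array was left out, normalization and filter stayed those of all 4 arrays, and a lone array was assumed to vary like the other group.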

Additional observations from a re-analysis of the deposited data

How the results depend on the processing

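No Fc gamma receptor gene was called in any of the 16 other settings, with adjusted p values from 0.542 to 0.999 for Fcgr1, 0.623 to 0.999 for Fcgr2b, 0.329 to 0.999 for Fcgr3, 0.450 to 0.999 for Fcgr4 and 0.257 to 0.999 for Fcer1g. Fcgr3, Fcgr4 and Fcer1g kept their direction in all 16, with changes of -0.53 to -0.15, 0.05 to 0.60 and 0.35 to 0.57. Fcgr2b was -0.24 with median scaling, and Fcgr1 was -0.0068 with median scaling and -0.12 to 0.84 when single arrays were left out. Median scaling moved the median of all features by -0.33, and relative to it Fcgr1 stood at 0.32, Fcgr2b at 0.09 and Fcgr4 at 0.38. Counts over all features, 5 higher and 5 lower, became 15 and 194 with median scaling, 3 and 2 with no filter, 1 and 3 with detection on all 4 arrays. By unadjusted p and a 1.5-fold change they were 303 and 425. The lower count was 8 without background correction, with an offset of 50 and with the authors' values, 9 over all kept probes and 10 when the prior followed intensity. When 1 array was left out, higher calls numbered 3 to 7 and lower calls 1 to 4. Of genes on the connected lists, 0 became 7 with median scaling (Fcmr, Fcrla, Pilrb1, Lat, Gab2, Ptprj and Trem1, adjusted p 0.0243 to 0.0493), 13 by unadjusted p and a 1.5-fold change, and 0 to 1 when single arrays were left out. Apart from fewer arrays or another set of features, the cause was not tested. Both groups number their arrays 1 and 2, but deviations of same-numbered arrays correlated at -0.02, so the numbers were not taken to pair them. With the replicate block the counts were 6 and 7 and the adjusted p of Fcer1g was 0.534.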

Other observations

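Cd300ld, an activating receptor of myeloid cells that signals through Fcer1g in the mouse, was chosen after its values were seen. It read log2 7.03 on wild type array 1 and 12.23 on wild type array 2, against 12.65 and 12.79 on the knockout arrays. Wild type array 1 stands apart from the other 3 arrays. The change was 3.09 ± 1.57 (limma adjusted p = 0.635), 0.49 on omission of wild type array 1 and 5.69 on omission of array 2 (adjusted p = 0.0168). Trem1, which signals through Tyrobp, was above background on 0 of 2 knockout arrays, with a limma adjusted p of 0.433 by the fit. Its wild type arrays read 7.05 and 8.23, against 6.13 and 6.55 in the knockout. Its knockout values were raised to the lowest detected signal of their array where they lay below it. The wild type mean was then 2.20-fold higher, an estimate that leaves out the spread of the arrays.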
